A study of Homo sapiens with 12 samples.

Results

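The miRNAs described here are known from muscle and connective tissue and were measured in extracellular vesicles of cell lines labelled as colorectal cancer. The miRNAs are hsa-miR-143-3p, hsa-miR-145-5p, hsa-miR-1-3p, hsa-miR-133a-3p, hsa-miR-199a-3p and hsa-miR-214-3p. They were chosen by name, and all 6 of the 6 had a row among the 1636 mature miRNAs of the count table. The study profiled small RNA from vesicles shed into culture medium by 6 lines (RCM-1, Hutu80, SW1116, MDST8, Car-1 and HT55), each represented by 2 of the 12 libraries. Its stated purpose was to profile vesicles of 3 lines of consensus molecular subtype 2 and 3 of subtype 4, but the labels used here do not say which line has which subtype, so the subtypes were not compared. All 6 lines are labelled as colorectal cancer, were untreated and were grown in DMEM/F12 with added fetal bovine serum, penicillin and streptomycin, and no label names a stromal cell in any culture. Separate cultures are not stated for the libraries of a line, so p-values below rest on the variation among these libraries alone, and that may be technical.

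A miRNA is cut from a hairpin precursor and guides silencing of messenger RNAs that match its seed, the bases near its 5′ end. miR-143 and miR-145 come from a shared transcript and are abundant in smooth muscle and fibroblasts, where they support the contractile state. In gut tissue they are known mainly from the mesenchymal layers rather than the epithelium. miR-1 and miR-133a are transcribed together in heart and skeletal muscle and act in muscle differentiation, and miR-199a and miR-214 come from a shared antisense transcript of mesenchymal tissues.

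The mature sequences identify which of these miRNAs a read can tell apart. All 6 matched an entry of RefSeq (build GRCh38.p14), and they are written 5′ to 3′ with the seed, bases 2 to 8, in capitals, next to miR-206 and miR-133b, the muscle relatives that share a seed with miR-1 and with miR-133a.
hsa-miR-143-3p: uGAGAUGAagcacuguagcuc
hsa-miR-145-5p: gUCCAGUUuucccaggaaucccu
hsa-miR-1-3p: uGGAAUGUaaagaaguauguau
hsa-miR-206: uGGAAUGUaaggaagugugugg
hsa-miR-133a-3p: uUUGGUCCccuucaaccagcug
hsa-miR-133b: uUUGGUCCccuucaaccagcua
hsa-miR-199a-3p: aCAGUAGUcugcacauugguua
hsa-miR-214-3p: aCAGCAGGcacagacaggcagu
The 6 miRNAs carry 6 different seeds.

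The loci pair up in the genome (GRCh38, GENCODE 29). MIR143 (chr5:149428918-149429023, plus strand) lies in an exon and MIR145 (chr5:149430646-149430733, plus strand) in an intron of the long noncoding gene CARMN, 1622 bases apart. miR-1-3p has 2 loci, each beside a miR-133a locus. MIR1-1 (chr20:62554306-62554376, plus strand) lies in an intron of MIR1-1HG, with MIR133A2 (chr20:62564912-62565013) 10535 bases away in an exon of that gene. MIR1-2 (chr18:21829004-21829088, minus strand) and MIR133A1 (chr18:21825698-21825785, minus strand), 3218 bases apart, lie in exons of MIR133A1HG and run antisense within an intron of MIB1. MIR199A2 (chr1:172144535-172144644) and MIR214 (chr1:172138798-172138907), both on the minus strand and 5627 bases apart, lie in exons of DNM3OS, opposite an intron of DNM3. The other miR-199a locus, MIR199A1 (chr19:10817426-10817496, minus strand), lies opposite an intron of DNM2.

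The 6 miRNAs made up a small share of the counts in these vesicles, and most of their counts belonged to miR-1-3p and miR-143-3p. Together they held 1480 of 3141138 counts, a share of 0.0471% (exact 95% interval 0.0447 to 0.0496%), and between 0.021% and 0.0973% of single libraries. miR-1-3p and miR-143-3p made up 1285 of these counts, or 86.8%. By mean CPM, the count as a share of the library total on a fixed scale, miR-1-3p ranked 131 and miR-143-3p ranked 141 among all 1636 miRNAs, while miR-199a-3p ranked 234, miR-133a-3p 423, miR-145-5p 452 and miR-214-3p 900. For scale, miR-200c-3p, the most abundant of the 9 gut epithelial miRNAs listed below, had 147659 counts. Among the 318 miRNAs tested below, 58.8% had a lower mean CPM than miR-1-3p, 55.7% than miR-143-3p and 26.4% than miR-199a-3p. In bulk vesicle RNA, fewer vesicles that carry a miRNA and less of it per vesicle cannot be told apart, nor can fewer cells of a type and less RNA per cell.

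**Figure D1:**
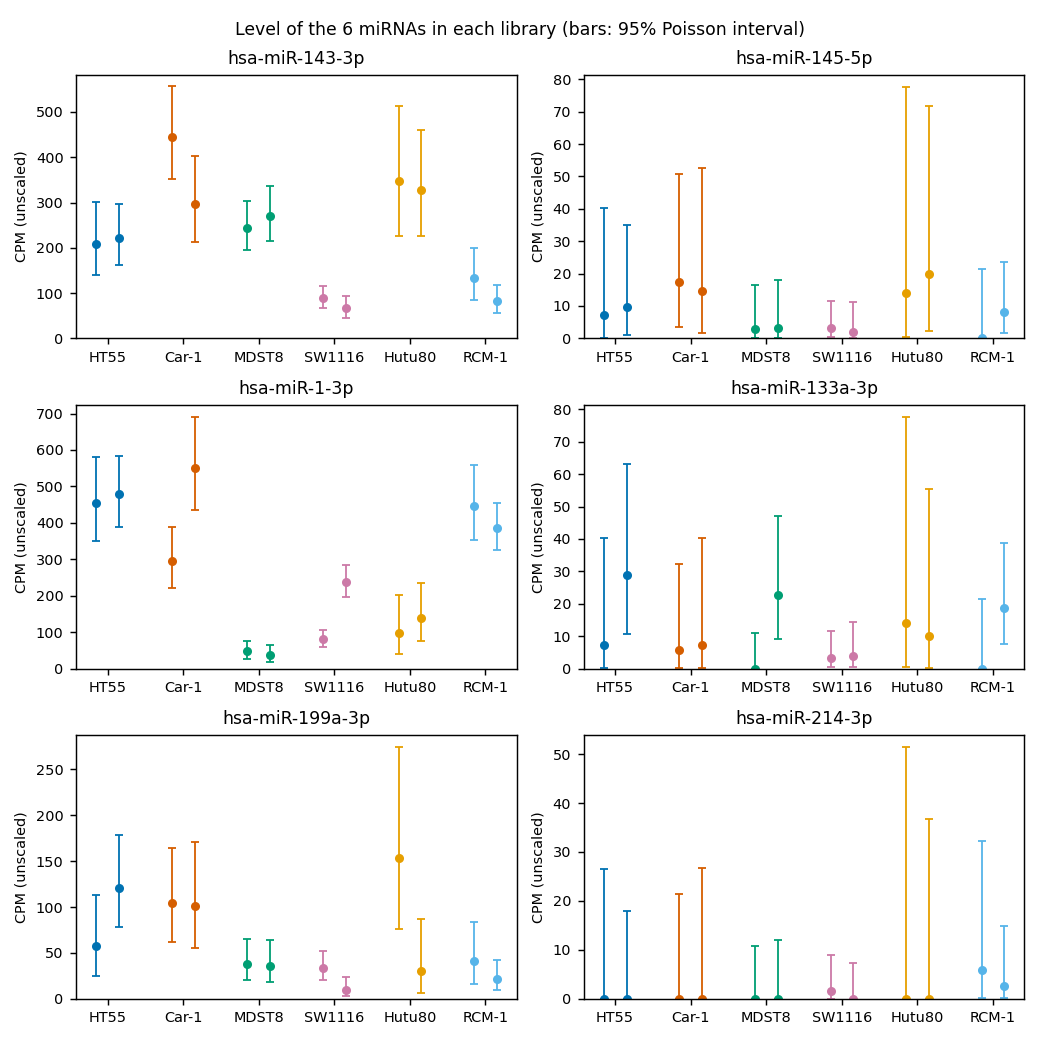
Level of each of the 6 miRNAs in CPM without further scaling (vertical axis, linear, own range per panel) in the 2 libraries of each of the 6 lines (horizontal axis, replicate 1 left of replicate 2). Points are libraries and bars are exact 95% Poisson intervals; miR-143-3p is lowest in SW1116 and RCM-1 and miR-1-3p in MDST8, while miR-214-3p is at 0 in 9 of 12 libraries.

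Library totals set how well miRNAs at such levels can be seen. The shallowest, Hutu80 replicate 1, had 71831 counts and the deepest, SW1116 replicate 1, had 622800, which is 8.67 times as many. A count was worth 13.9 CPM in the shallowest and 1.61 CPM in the deepest. Of the 6 miRNAs, 3 (miR-143-3p, miR-1-3p and miR-199a-3p) passed the filter on low counts that left 318 miRNAs for testing. The other 3 are given by their counts, with no test. Intervals cover counting error only.

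miR-143-3p was present in every library at 23 to 83 counts and was lowest in SW1116 and RCM-1. There were 83 and 83 counts in MDST8, 77 and 41 in Car-1, 55 and 33 in SW1116, 29 and 46 in HT55, 25 and 33 in Hutu80, and 23 and 31 in RCM-1 (replicates 1 and 2 in that order). As CPM this was 209 and 222 in HT55, 446 and 298 in Car-1, 244 and 271 in MDST8, 88.3 and 66.2 in SW1116, 348 and 328 in Hutu80, and 133.5 and 83.2 in RCM-1. The 4 libraries of SW1116 and RCM-1 lay at 66.2 to 133.5 CPM and did not overlap the other 8, at 209 to 446 CPM. After scaling by trimmed-mean (TMM) factors, which adjust for differences in composition, the gap remained, with 91.7 to 150.3 CPM against 205 to 313 CPM. The lines were grouped by these same levels, and the share of all tested miRNAs with such a gap was not computed. The ordered means of scaled CPM were 275 ± 2.59 in Hutu80, 262 ± 1.99 in MDST8, 259 ± 76.3 in Car-1, 233 ± 26.8 in HT55, then 121 ± 41.5 in RCM-1 and 113 ± 13.7 in SW1116 (SD, n = 2 each).

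By edgeR's quasi-likelihood test with Benjamini-Hochberg adjustment over the 318 miRNAs, miR-143-3p differed across the 6 lines with an adjusted p of 0.0349. Of all tested miRNAs, 68.2% differed across lines at the same threshold of 0.05, so a call here is the usual outcome in these data. The call for miR-143-3p ended when any of 10 of the 12 libraries was left out (adjusted p 0.0532 to 0.108), and held only without HT55 replicate 1 (0.0408) or RCM-1 replicate 1 (0.022). It also ended with no filter on low counts (0.204) and with a filter of 10 CPM in 2 libraries (0.0985).

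Set against the mean of the other 5 lines, miR-143-3p was lower in SW1116, by a log2 difference of -0.95 ± 0.37 (SE; adjusted p = 0.0475, edgeR), where 34.3% of tested miRNAs were called. This SW1116 call is marginal: it held in 1 of 12 fits with a library left out (0.0284, without RCM-1 replicate 2) and in 3 of 9 other settings (0.00165 to 0.787). RCM-1 had a difference of -0.88 that missed the threshold (adjusted p = 0.076), and 35.8% of tested miRNAs were called there. The remaining differences were 0.58 in Hutu80, 0.49 in MDST8, 0.48 in Car-1 and 0.28 in HT55, none of them past the threshold.

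Between single lines, miR-143-3p passed the threshold in 5 of 15 pairs, while 32.9% of all tests over the 15 pairs did. It was higher in Car-1 than in SW1116 (1.19 log2, adjusted p = 0.0381, edgeR), in MDST8 than in SW1116 (1.20, 0.0379), in MDST8 than in RCM-1 (1.15, 0.0457) and in Hutu80 than in RCM-1 (1.22, 0.0433), and lower in SW1116 than in Hutu80 (-1.28, 0.0272). No neighbours in the order of levels differed by this test; across the gap, the difference of HT55 from RCM-1 was 0.97 ± 0.47 (SE) with an adjusted p of 0.19. When any 1 of the 10 libraries that end the call across lines was left out, between 1 and 3 pairs passed.

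miR-145-5p, made from the same CARMN transcript, was at the edge of detection in every line. It had 1 and 2 counts in HT55, 3 and 2 in Car-1, 1 and 1 in MDST8, 2 and 1 in SW1116, 1 and 2 in Hutu80, and 0 and 3 in RCM-1, or 19 in all. No library stood apart: the interval of the 3 counts in Car-1 replicate 1 (0.619 to 8.77 counts) reached below 1 count and that of 0 counts in RCM-1 replicate 1 reached 3.69. Over both libraries of a line, miR-145-5p measured from 2.68 CPM in SW1116 (interval 0.552 to 7.82) to 17.4 CPM in Hutu80 (3.59 to 50.9), and all 6 intervals overlapped.

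The pair was therefore unequal in all lines. Of the counts of miR-145-5p and miR-143-3p together, miR-145-5p made up 3.29% (exact 95% interval 1.99 to 5.09%), or 1 count for 29.4 of miR-143-3p. By line its share ran between 1.19% in MDST8 (0.144 to 4.23%) and 5.26% in RCM-1 (1.1 to 14.6%), with overlapping intervals. The other arms of both hairpins were rarer still: miR-143-5p had 2 counts, both in RCM-1, and miR-145-3p had 4. Counts of different miRNAs also carry the capture bias of small RNA library preparation, which was not measured here.

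**Figure D2:**
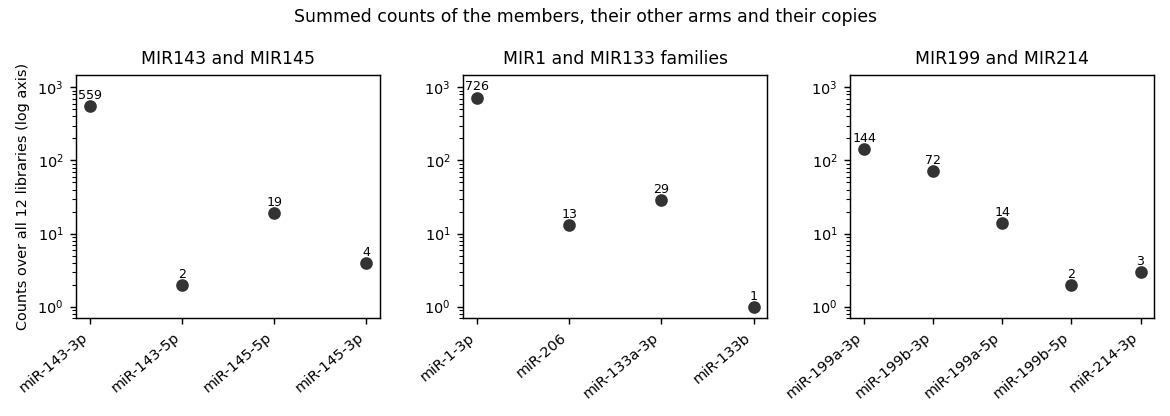
Counts summed over all 12 libraries (vertical axis, log scale) for the 6 miRNAs and those of their other arms and copies that had a row, grouped by locus pair (3 panels). Numbers above the points are the counts. Within each panel 1 miRNA leads, with 559 counts of miR-143-3p against 19 of miR-145-5p and 726 of miR-1-3p against 29 of miR-133a-3p. In the last panel 144 counts were assigned to miR-199a-3p, whose sequence miR-199b-3p shares, against 3 of miR-214-3p.

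miR-1-3p had the widest range of counts of the 3 tested miRNAs, being high in HT55 and RCM-1 and low in MDST8 and Hutu80. RCM-1 had 77 and 144 counts, HT55 63 and 99, Car-1 51 and 76, SW1116 50 and 118, Hutu80 7 and 14, and MDST8 16 and 11. As CPM this was 454 and 479 in HT55, 295 and 552 in Car-1, 47.1 and 35.9 in MDST8, 80.3 and 237 in SW1116, 97.5 and 139 in Hutu80, and 447 and 387 in RCM-1. Both MDST8 libraries lay below the other 10. On the scaled CPM, the 4 libraries of HT55 and RCM-1 (426 to 547) lay above the other 8 (34.6 to 380), but on unscaled CPM they overlapped Car-1. Here too the lines were grouped by their levels, and no share of all tested miRNAs with such gaps was computed. The scaled means were 504 ± 61.4 in HT55, 465 ± 54.8 in RCM-1, 294 ± 122 in Car-1, 241 ± 183 in SW1116, 97.1 ± 29 in Hutu80 and 42.7 ± 11.5 in MDST8 (SD, n = 2 each). In SW1116 and in Car-1 the replicates differed beyond counting error. Replicate 2 had the higher level from the smaller total in both lines, with a 95% Poisson interval of 196 to 284 CPM against 59.6 to 106 CPM in SW1116, and of 435 to 691 CPM against 219.8 to 388 CPM in Car-1.

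The difference of miR-1-3p across lines had an adjusted p of 3.73e-05 by edgeR's quasi-likelihood test, and it passed in all 12 fits with a library left out and in all 9 other settings (2.82e-11 to 0.00164). Compared with the mean of the other 5 lines, it was higher in HT55 by 1.57 ± 0.35 log2 (SE; adjusted p = 0.00158; 24.2% of tested miRNAs called) and higher in RCM-1 by 1.43 ± 0.35 (adjusted p = 0.00256). In MDST8 it was lower, at -2.68 ± 0.49 (adjusted p = 6.86e-05; 44.3% called), and in Hutu80 at -1.24 ± 0.48 (adjusted p = 0.0445; 39.6% called). Car-1 (0.64, adjusted p = 0.202; 34.6% called) and SW1116 (0.28, adjusted p = 0.628) did not pass, though Car-1 did without SW1116 replicate 2 (0.85, 0.046). The MDST8 and RCM-1 calls held in every fit run and the HT55 call in all but 1, where counts of blood-cell miRNAs replaced the library size (0.54, adjusted p = 0.341). The Hutu80 call ended when either of its own libraries (0.0694 without replicate 1, 0.0609 without replicate 2), either RCM-1 library (0.0609 without replicate 1, 0.0548 without replicate 2), HT55 replicate 1 (0.0638), MDST8 replicate 1 (0.0582) or SW1116 replicate 2 (0.0586) was left out. It was also lost when counts were scaled by library totals alone (-0.88, adjusted p = 0.148) and with limma-voom (-1.13, 0.246).

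In the tests of pairs, miR-1-3p separated lines at the ends of the order but not neighbours. It passed in 6 of 15 pairs, near the background of 32.9%: it was higher in HT55 than in MDST8 (3.54 log2, adjusted p = 1.29e-05, edgeR) and than in Hutu80 (2.35, 0.0019), and higher in Car-1 than in MDST8 (2.76, 3.27e-04). It was lower in MDST8 than in SW1116 (-2.47, 7.19e-04) and than in RCM-1 (-3.42, 1.66e-05), and lower in Hutu80 than in RCM-1 (-2.23, 0.00229). No neighbours in the order HT55, RCM-1, Car-1, SW1116, Hutu80, MDST8 differed by this test (adjusted p 0.0687 to 0.934).

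**Figure D3:**
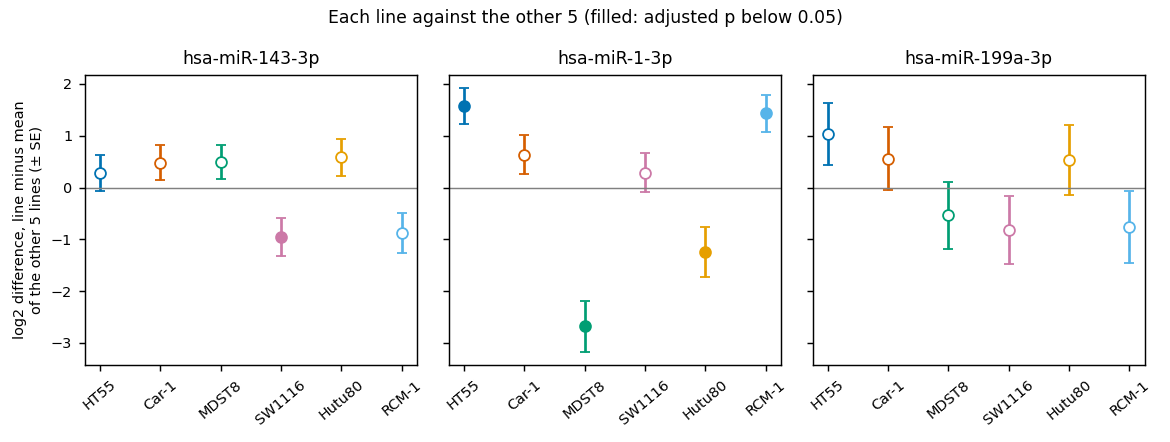
Fitted log2 difference of each line from the mean of the other 5 lines (vertical axis) for the 3 tested miRNAs (panels), by line (horizontal axis). Bars are SE and filled points have an adjusted p below 0.05 by edgeR's quasi-likelihood test: 4 lines for miR-1-3p, from -2.68 in MDST8 to 1.57 in HT55, 1 for miR-143-3p (SW1116, -0.95) and 0 for miR-199a-3p.

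miR-133a-3p, the partner of miR-1-3p at both loci, had 29 counts in 10 libraries. Both libraries had 1 in Car-1 and in Hutu80 and 2 in SW1116, while the replicates had 1 and 6 in HT55, 0 and 7 in MDST8, and 0 and 7 in RCM-1. The replicate 2 libraries of HT55, MDST8 and RCM-1 held 20 of the 29 counts, and no other library exceeded 2. The intervals within each of these lines overlapped, with 2.81 to 14.4 counts in MDST8 replicate 2 against an upper bound of 3.69 counts in replicate 1. Overlap does not show that the replicates were alike, and their difference was not tested. Of the counts of miR-133a-3p and miR-1-3p together, miR-133a-3p made up 3.84% (exact 95% interval 2.59 to 5.47%). By line the share was 20.6% in MDST8 (8.7 to 37.9%), where miR-1-3p was lowest and all 7 counts came from 1 library, 8.7% in Hutu80 (1.07 to 28.0%), and between 1.55% in Car-1 and 4.14% in HT55 in the other 4 lines.

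Relatives with the same seeds were scarce. miR-206, a skeletal muscle miRNA, had 13 counts, of which 8 came from SW1116, and miR-133b had 1. The sequences of miR-133b and miR-133a-3p differ only in the last base, so a read without that base cannot tell them apart. How such reads were counted is not given in the sources used here. In no library did miR-206 reach the count of miR-1-3p. The arms miR-1-5p and miR-133a-5p were not analysed here.

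miR-199a-3p was seen in every library at 3 to 25 counts, with wide replicate spread. There were 8 and 25 counts in HT55, 18 and 14 in Car-1, 13 and 11 in MDST8, 21 and 5 in SW1116, 11 and 3 in Hutu80, and 7 and 8 in RCM-1. The corresponding CPM were 57.7 and 121 in HT55, 104 and 102 in Car-1, 38.3 and 35.9 in MDST8, 33.7 and 10.0 in SW1116, 153 and 29.8 in Hutu80, and 40.6 and 21.5 in RCM-1. The highest and the third-lowest of the 12 libraries both belong to Hutu80, so its range spans most other lines. Scaled means were 92.9 ± 33.1 in HT55, 72.8 ± 67.3 in Hutu80, 71.6 ± 2.23 in Car-1, 37.9 ± 4.75 in MDST8, 34.7 ± 15.6 in RCM-1 and 31.3 ± 22.1 in SW1116 (SD, n = 2 each). No difference across lines was detectable at this depth (adjusted p = 0.321, edgeR; 0.0662 to 0.976 in 9 other settings), and it passed in 0 of 15 pairs (lowest adjusted p 0.186), also by DESeq2 and by limma-voom, with 0 pairs at an unadjusted p below 0.05. Its differences from the other 5 lines ran from -0.82 ± 0.65 in SW1116 to 1.04 ± 0.60 in HT55 (SE; adjusted p 0.379 and 0.224).

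A further limit on miR-199a-3p is that hsa-miR-199b-3p, cut from MIR199B (chr9:128244721-128244830, minus strand, opposite an intron of DNM1), has the same mature sequence. The 3 hairpins are shown because the shared mature strand, in capitals, is what the reads contain.
MIR199A1: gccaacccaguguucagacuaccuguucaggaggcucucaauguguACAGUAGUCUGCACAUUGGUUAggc
MIR199A2: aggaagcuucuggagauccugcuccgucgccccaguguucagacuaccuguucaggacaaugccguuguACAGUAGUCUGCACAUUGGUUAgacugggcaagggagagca
MIR199B: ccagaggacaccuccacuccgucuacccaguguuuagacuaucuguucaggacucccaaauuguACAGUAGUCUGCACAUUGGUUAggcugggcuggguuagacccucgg
The table gave 144 counts to miR-199a-3p and 72 to miR-199b-3p, so miR-199a-3p had 66.7% of the sum. In all 12 libraries the miR-199a-3p count was within 0.333 counts of its loci's share of that sum (2 of 3 loci). The counts therefore do not separate the genes, and the sum of both is what was measured. With both summed the test across lines had an adjusted p of 0.199. The 5p arms do differ in sequence: miR-199a-5p had 14 counts and miR-199b-5p had 2. Against the 144 counts assigned to miR-199a-3p, miR-199a-5p made up 8.86% of both arms (4.93 to 14.4%). That share depends on the assignment, so it is not a measured arm ratio of the miR-199a loci.

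miR-214-3p, from the transcript that holds MIR199A2, was nearly undetected. It had 1 count in SW1116 replicate 1, 1 in each RCM-1 library and 0 in the other 9. With 0 counts over both libraries, the upper limit of the exact 95% interval was 10.7 CPM in HT55, 11.9 CPM in Car-1, 5.7 CPM in MDST8 and 21.4 CPM in Hutu80. Together with the counts assigned to miR-199a-3p, miR-214-3p made up 2.04% (exact 95% interval 0.423 to 5.85%), and in RCM-1 11.8% (1.46 to 36.4%). These shares depend on that assignment, and of the loci with the shared sequence only MIR199A2 lies beside MIR214. Per line, nothing finer than these limits could be seen.

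The levels were then set beside library depth. Over the 12 libraries, the CPM of miR-143-3p was lower where the total was higher (Spearman -0.71, Pearson -0.71), and over the 6 line means both were -0.77. For miR-199a-3p the Spearman value was -0.59 over libraries and -0.89 over lines, and for miR-1-3p -0.31 and -0.26. These are descriptions: CPM has the total in its denominator, and libraries of a line share their cells. The same value over all 318 tested miRNAs had a median of -0.32 with quartiles of -0.59 and 0.06. Lower values than that of miR-143-3p were found in 11.9% of tested miRNAs, against 24.2% for miR-199a-3p and 50.6% for miR-1-3p.

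Without the 2 deepest libraries, both SW1116, the Spearman value was -0.53 for miR-143-3p, -0.19 for miR-1-3p and -0.45 for miR-199a-3p. Set against the number of miRNAs detected in place of the total, it was -0.04 for miR-143-3p, 0.22 for miR-1-3p and -0.09 for miR-199a-3p, so the negative relation of miR-143-3p and miR-199a-3p was near 0 on that measure.

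Unscaled counts showed the other side of this relation. The Spearman correlation of counts with totals was 0.45 for miR-143-3p, 0.39 for miR-1-3p and 0.20 for miR-199a-3p, where the median over tested miRNAs was 0.52. While totals spanned a ratio of 8.67, miR-143-3p counts spanned 3.61 and its CPM 6.73. Only for miR-1-3p was the count range (20.6) wider than the CPM range (15.4) among the 3 tested members.

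Within a line, where the cells are the same, depth and level had no shared direction. The deeper library had the lower miR-143-3p CPM in 3 lines and the higher in 3, with ratios of deeper to shallower library between 0.623 in RCM-1 and 1.5 in Car-1. Those of miR-1-3p were also lower in 3 and higher in 3 (0.339 in SW1116 to 1.43 in Hutu80). For miR-199a-3p they were lower in 2 and higher in 4 (0.195 in Hutu80 to 3.36 in SW1116). Totals of SW1116 and of Hutu80 overlapped those of no other line, so depth and line cannot be told apart there. Among the other 4 lines some totals nearly matched: miR-143-3p was at 446 CPM in Car-1 replicate 1 (172774 counts in all) against 133.5 CPM in RCM-1 replicate 1 (172320).

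**Figure D4:**
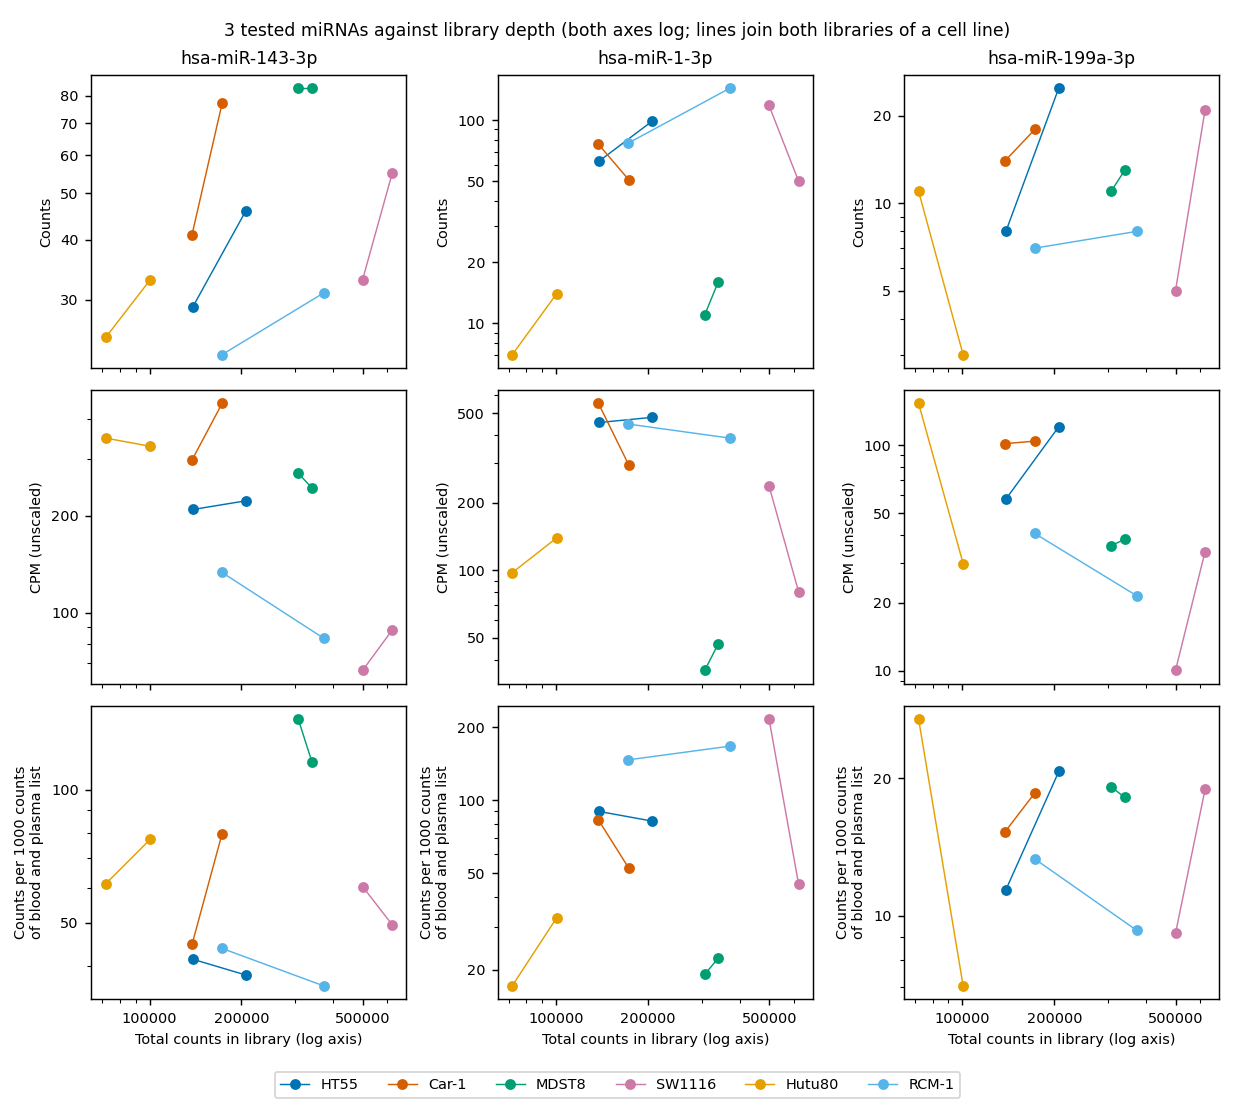
Counts (top row), unscaled CPM (middle row) and counts per 1000 counts of the blood cell and plasma list (bottom row) of the 3 tested miRNAs (columns) against total counts of the library (horizontal axis); all axes are logarithmic. Points are libraries and segments join both libraries of a line; miR-143-3p CPM is lowest in the deepest line, SW1116, while the segments rise in 3 lines and fall in 3.

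Marker lists show which other RNAs the vesicles carried. The 9 gut epithelial miRNAs, the miR-200 family among them, summed to between 5250 CPM in MDST8 and 139000 CPM in HT55, led by miR-200c-3p (mean 43100 CPM) and miR-200b-3p (14800 CPM), and all 9 of 9 differed across lines, where 68.2% of all tested miRNAs did. In unscaled CPM the list held 5250 to 6340 CPM in MDST8, 13200 to 15900 in Hutu80, 45700 to 63900 in Car-1, 81500 to 83300 in SW1116, 97200 to 138000 in RCM-1 and 134000 to 139000 in HT55. The list and miR-1-3p were both lowest in Hutu80 and MDST8 by mean unscaled CPM and both highest in HT55, while miR-1-3p averaged 423 CPM in Car-1 and 417 CPM in RCM-1. The part of this list in the level of miR-1-3p was not tested. As a check of the label, the epithelial list was thus present in all 12 libraries, at its lowest in MDST8.

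Other striated muscle markers did not accompany miR-1-3p. Of 7 listed, 3 had a row, and they summed to 0 to 19.3 CPM per library, with miR-206 at a mean of 3.17 CPM and miR-499a-5p, a miRNA of a myosin gene, at 2.40 CPM. The other arms of the smooth muscle pair summed to 0 to 11.6 CPM. The heart miRNAs miR-208a-3p and miR-208b-3p were not analysed here.

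The stromal fibroblast list, of which 10 of 11 had a row, had its lowest sums in SW1116 and RCM-1, the lines with the least miR-143-3p. It summed to 5530 to 6340 CPM in MDST8, 5170 to 6540 in Hutu80, 3730 to 3820 in Car-1, 1380 to 2270 in HT55, then 797 to 929 in RCM-1 and 702 to 973 in SW1116. These sums were led by miR-218-5p (mean 1950 CPM) and miR-152-3p (923 CPM). Those were the 2 of the list's 6 tested members that differed across lines, against 68.2% of all tested miRNAs. Among the remaining lines the orders differed. Mean unscaled miR-143-3p peaked at 372 CPM with Car-1, whose list sums were below those of MDST8 or Hutu80. The 5p arms of the miR-199 family, which are on this list, were near 0, with 14 counts of miR-199a-5p and 2 of miR-199b-5p. The 3p sequence of the family, not on the list, was counted in all 12 libraries. What part the list had in the level of miR-143-3p was not tested. The endothelial pair, miR-126-3p (mean 198 CPM) and miR-126-5p (166 CPM), had levels of the same order as miR-143-3p and summed to 150 to 607 CPM. Across lines their adjusted p was 0.247 and 0.342 by edgeR. This pair was also low in RCM-1 (150 to 221 CPM) and SW1116 (157 to 286), the latter overlapping MDST8 (231 to 294). The blood cell and plasma list, described next, was lowest in SW1116 (1100 to 1780 CPM), then MDST8 (1870 to 2110) and RCM-1 (2310 to 3050). Low unscaled sums in these lines were thus not particular to the stromal list.

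Taken as a sum, the listed miRNAs of blood cells and plasma were more abundant than the 6. The less abundant of them lay below miR-1-3p and miR-143-3p by mean CPM. The 8 listed summed to between 1100 CPM in SW1116 and 6660 CPM in Car-1, led by the red cell miRNA miR-486-5p (2620 CPM) and the myeloid miR-223-3p (514 CPM), and 2 of 7 tested differed across lines, against 68.2% of all tested miRNAs. miR-486-5p itself was 1 of these 2 (adjusted p = 5.14e-05, edgeR). The list's sum thus rests largely on a miRNA that differed across lines and is not a stable reference. Counts of miR-199a-3p followed the summed counts of this list most closely of the 3 (Spearman 0.81, Pearson 0.86, n = 12 libraries of 6 lines). The Spearman value was 0.54 and the Pearson 0.30 for miR-143-3p, and they were 0.38 and 0.40 for miR-1-3p. Between CPM and the list's summed CPM, which share a denominator, the Spearman value was 0.82 for miR-199a-3p, 0.62 for miR-143-3p and 0.65 for miR-1-3p. Per 1000 counts of the list, miR-199a-3p lay between 7.03 and 27.0, a ratio of 3.84 against 15.3 for its CPM. miR-143-3p lay between 36.0 and 144.6 per 1000 and miR-1-3p between 17.2 and 216. With the list's counts as library size, the adjusted p across lines was 0.976 for miR-199a-3p, 0.0275 for miR-143-3p and 0.00155 for miR-1-3p (edgeR). The medium contained fetal bovine serum, and the part of serum RNA in any of these levels was not tested.

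The closest patterns among the tested miRNAs differed between the 3. By Spearman correlation of log2(scaled CPM + 1) over 12 libraries, miR-143-3p was most like miR-218-5p (0.895), miR-363-3p (0.874) and miR-20b-5p (0.86), with a median of 0.126 over all tested miRNAs. miR-1-3p was most like miR-200b-5p (0.937), miR-196b-5p (0.902) and let-7d-3p (0.881), with a median of -0.014. miR-199a-3p was most like miR-199b-3p (0.986), which has its sequence, then miR-155-5p (0.86) and miR-486-5p (0.797), with a median of 0.042. The 12 points are 6 lines with 2 libraries each and share the scaling factors.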

How the data were processed

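Small RNA libraries were made from vesicle RNA with IsoSeek, a low-input protocol with molecular identifiers, after ultrafiltration and size-exclusion chromatography, per the labels' protocols. The authors deposited whole-number counts per mature miRNA, and a second deposited table of log2 values that equals log2(CPM + 1) of the counts over 19632 cells (largest difference 5e-14). Per the submitters' processing notes, hg38 was the build. Not given in the sources used here are the aligner, the counter and any collapsing of identifiers. Uncollapsed reads would not be independent molecules.

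Groups are the lines in the labels. Of 1636 rows, 413 were at 0 in every library and 318 passed edgeR's filterByExpr, with 99.7% of counts. Counts were tested with edgeR 4.0.16 (TMM factors 0.641 to 1.46, glmQLFit with robust estimation, glmQLFTest, 1 mean per line, common biological coefficient of variation 0.304), in R 4.3.3: across lines, for a line against the other 5 averaged, and for all 15 pairs, with Benjamini-Hochberg adjustment over 318 miRNAs per comparison and a threshold of 0.05. The SE is the log2 difference divided by the square root of F. Low counts have exact Poisson intervals and shares exact Clopper-Pearson intervals (95%, scipy 1.17.1). The procedure was also run on simulated data with changes in HT55 only and the same spread for every miRNA. Those settings differ from these data, so that run does not give the error rates here. Alternatives were RLE factors, library totals, no filter, 10 CPM in 2 libraries (looser than the main filter), DESeq2 1.42.0, limma-voom (limma 3.58.1), the replicate number as a block and each library left out. Added after seeing the data were the sum of miR-199a-3p and miR-199b-3p, the blood list as library size, and depth without libraries. The members, the marker lists and the tests were chosen with earlier results of these data known. The text names the 6 miRNAs, their other arms and copies, the 3 most similar miRNAs of each tested member and the 2 most abundant of each marker list, plus miR-199a-5p and miR-199b-5p of the stromal list.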

Additional observations from a re-analysis of the deposited data

How the results depend on the processing

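Across-line calls of miR-1-3p passed in every setting run, and miR-199a-3p passed in none. Of the 6 miRNAs 3 were tested in the main fit, and 2 of these were called across lines, where 68.2% of all tested miRNAs were. Of the 6, 1 was called with no filter and 1 with 10 CPM in 2 libraries, where 246 and 258 miRNAs were called in all. The miR-143-3p call was also lost with some libraries left out, as described above. Pairs called for miR-143-3p, 5, became 0 with no filter, 0 with 10 CPM in 2 libraries, 2 with DESeq2, 2 with the blood list as library size and 1 to 6 with a library left out. With library totals only, 11 pairs were called for miR-1-3p and 1 for miR-199a-3p. That scaling shifted the median of all miRNAs by 0.63 log2 in Car-1, -0.66 in SW1116 and 0.35 in Hutu80. Under it, miR-1-3p in Car-1 (1.29, adjusted p = 0.00398), miR-143-3p in Car-1 (1.11, 0.00757) and Hutu80 (0.94, 0.0373), and miR-143-3p in RCM-1 (-1.07, 0.0343) passed. The last also passed with limma-voom (-0.99, 0.0477). With the blood list as library size, miR-1-3p in SW1116 (1.24, 0.0249) and miR-143-3p in MDST8 (1.33, 0.00368) passed.

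Signs turned for miR-1-3p in SW1116 (-0.42 with library totals, -0.81 without SW1116 replicate 2, up to 0.92 without replicate 1), miR-143-3p in HT55 (-0.72) and miR-199a-3p in MDST8 (0.31) with the blood list as library size, and miR-199a-3p in Hutu80 (-1.47 without Hutu80 replicate 1, 1.08 without replicate 2). None of the turned values passed the test, and the cause was not tested. All miRNAs called in HT55, 77, became 139 with the blood list and 43 to 85 with a library left out. Leaving out a library gave 63 to 114 in Car-1 (110 with all), 52 to 105 in SW1116 (109) and 74 to 118 in RCM-1 (114). The lowest of each came without HT55 replicate 1, Car-1 replicate 1, SW1116 replicate 2 and RCM-1 replicate 2. Leaving out either library of a line leaves it 1 library, assumed to vary like the others. Why these replicates gave the lowest values was not tested.

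The Spearman value against depth became -0.04, 0.22 and -0.09 for miR-143-3p, miR-1-3p and miR-199a-3p with miRNAs detected as depth, and -0.53, -0.19 and -0.45 without the 2 deepest libraries. With a library left out it was -0.81 to -0.64, -0.47 to -0.17 and -0.82 to -0.47. Replicate numbers did not pair the libraries (15 correlations between lines, -0.105 to 0.249). With the replicate number as a block, 2 of the 3 tested members were called across lines, beside 223 of all 318 tested miRNAs. The miR-143-3p call in SW1116 ended with it (adjusted p = 0.0506, edgeR).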

Other observations

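miR-365a-3p and miR-365b-3p, a pair chosen after its values were seen, had identical counts in 12 of 12 libraries, beside the fixed share of miR-199a-3p and miR-199b-3p described above.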
